A study of Mus musculus with 16 samples.

Results

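The comparison is of wire-injured carotid arteries taken 28 days after injury (4 arrays) with uninjured carotid arteries (3 arrays), 7 of the 16 arrays in the series. Arrays were assigned by their labels, and all 611 mouse microRNAs with a probe were read. All mice were female ApoE-/- animals on a C57BL/6 background, 6 to 8 weeks old per the labels, and received a western-type diet. They lack apolipoprotein E, the ligand that clears remnant lipoproteins from blood, in every cell and in every group, so no array here is from a wild-type artery. The injured vessels had been denuded with a wire. Each array holds total RNA of a whole artery (700 ng into the labelling), so fewer cells of a type and less microRNA per cell cannot be told apart. Per the labels, 3 or 4 animals were used per group. Arteries taken at day 7 (3 arrays) and day 14 (3 arrays) after the same injury, from mice of the same genotype, diet and strain, are used only to place day 28 in time.

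A wire pulled through an artery strips the endothelium. Platelets and leukocytes adhere, smooth muscle cells of the media leave their contractile state and divide, and over weeks a neointima forms. MicroRNAs are short RNAs that guide Argonaute proteins to messenger RNAs, chiefly by pairing of their seed, bases 2 to 8, and lower the output of those messages. In arteries miR-143 and miR-145 are the markers of contractile smooth muscle, miR-126 marks endothelium, miR-223 and miR-142 mark blood-borne cells, and miR-21 and miR-146 are known to be induced in injured or inflamed vessels.

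The following mature sequences belong to microRNAs called higher at day 28: members of the inflammation, leukocyte, growth and miR-34 groups described below, with the seed partners miR-34b-5p and miR-222, whose own rises were small. They are written 5′ to 3′ with the seed in capitals, and pairs that share a seed are set together. Sequences and hairpin positions are from RefSeq, build GRCm38.p6, and 59 array names were paired by hand with a RefSeq entry.
miR-146a: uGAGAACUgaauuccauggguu
miR-146b: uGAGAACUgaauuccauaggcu
miR-155: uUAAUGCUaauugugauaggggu
miR-21: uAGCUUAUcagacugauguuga
miR-223: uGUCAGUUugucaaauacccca
miR-142-3p: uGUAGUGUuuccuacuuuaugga
miR-34a: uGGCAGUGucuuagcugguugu
miR-34b-5p: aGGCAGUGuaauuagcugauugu
miR-221: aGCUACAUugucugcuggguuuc
miR-222: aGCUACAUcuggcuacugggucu
miR-362-5p: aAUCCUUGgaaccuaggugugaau
The 2 miR-146 sequences differ at 2 of 22 positions, the first of them position 18, so a probe for one may also read the other and their changes are not fully separate measurements. In contrast miR-221 and miR-222 differ at 12 of 23 positions, all outside the seed. The hairpins lie at chr11:43374397-43374461 on the minus strand (Mir146), chr19:46342762-46342870 on the plus strand (Mir146b, within the span of the noncoding gene Gm36493), chr16:84714140-84714204 on the plus strand (Mir155, within its host transcript Mir155hg) and chr11:86584067-86584158 on the minus strand (Mir21a, within the span of Vmp1). Mir223 lies at chrX:96242817-96242926, Mir142 at chr11:87756864-87756927 and Mir34a at chr4:150068454-150068555, all on the plus strand. Mir221 and Mir222 lie together within 678 bases of chromosome X, at chrX:19146294-19146971 on the minus strand.

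The next 3 sequences belong to single microRNAs that were called lower at day 28: miR-193b of the fat-enriched list, miR-133b of striated muscle and miR-29c of the family that targets matrix messages.
miR-193b: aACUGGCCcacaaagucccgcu
miR-133b: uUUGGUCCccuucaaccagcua
miR-29c: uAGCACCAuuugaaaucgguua
Mir193b lies at chr16:13449523-13449601 and Mir133b at chr1:20682769-20682887, both on the plus strand.

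Levels are log2 of the array signal divided by that array's 75th percentile of 395 probes, so 0 is the level of a fairly bright probe and -5.79 is the floor set for probes not above background. Between 31.2% and 38.0% of mouse probes were well above background on the day 28 arrays, against 26.4% to 31.9% on the uninjured arrays, and no mouse spot was saturated. The tissue markers were present: miR-143, miR-145 and miR-126-3p were above background on all 7 arrays. A microRNA was tested when 1 group or more had it above background on each of its arrays, which 321 met. One that was not above background on every uninjured array was tested only through injured groups. Counts of rises that include such microRNAs are not independent support.

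Day 28 replicate 2 stood apart and is named before the results. The summed scaled signal of 17 epithelial microRNAs, each by its brightest probe (the miR-200 family, miR-203, miR-205, miR-375 and the miR-183 cluster), was 2.49 on that array. It was 0.244, 0.309 and 0.510 on the other day 28 arrays and 0.429 to 0.948 on the uninjured arrays. On replicate 2, 11 of the 17 microRNAs had a probe above background, against 4 to 6 on the other day 28 arrays. Its miR-200b level was -1.35, while replicates 1, 3 and 4 read -5.79, -5.79 and -5.51. It read -1.26 for miR-200c, -1.51 for miR-141, -1.78 for miR-200a, -2.07 for miR-429 and -1.54 for miR-205, and the last 3 were at the floor on the other 6 arrays. These sequences are shown because they mark that array; miR-200b and miR-200c differ at 2 of the 22 positions they share.
miR-200b: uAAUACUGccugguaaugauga
miR-200c: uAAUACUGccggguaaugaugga
miR-141: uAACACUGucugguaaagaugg
miR-205: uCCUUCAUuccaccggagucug
The same array also had the highest leukocyte sum of the day 28 arrays, 17.1 against 12.8, 12.9 and 14.9, and read highest in miR-142-3p, miR-142-5p, miR-150, miR-128 and miR-181a. Uninjured replicate 3 departed from its group too: its miR-143 read 1.75 against 2.57 and 2.58, and its summed nerve list was 9.82 against 4.36 and 5.56. Slide is the second known factor. Day 28 replicates 3 and 4 shared slide 2 with all uninjured arrays, and replicates 1 and 2 lay on slide 1. With slide as a block the day 28 difference rests on replicates 3 and 4 alone, and its point estimate equals that within slide 2.

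At day 28 the arteries had more leukocyte and inflammation-associated microRNA and lower levels of several smooth muscle, striated muscle and fat-enriched microRNAs than uninjured arteries. By limma with Benjamini-Hochberg adjustment, 84 of 321 microRNAs were called at an adjusted p under 0.05, which is 26.2% of those tested: 54 higher (16.8%) and 30 lower (9.35%). At least 1 log2 unit separated 34 of them, 21 higher and 13 lower. For 76 of the 84 the arrays of the groups did not overlap, as was so for 102 of all 321 (31.8%). The median difference over all 321 was 0.03. Without replicate 2 the count was 75 (23.4%), 51 higher (15.9%) and 24 lower (7.48%). It was 55 (17.1%) when slide was a block, 43 higher (13.4%) and 12 lower (3.74%), and 55 (17.1%) within slide 2, 44 higher (13.7%) and 11 lower (3.43%). All 84 kept their direction in each of these 3 fits, and 38 were called in all 3, 32 higher and 6 lower. The slide block and slide 2 fits share their point estimates. All 3 reuse arrays of the main fit, so the shared direction is not independent support.

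**Figure D1:**
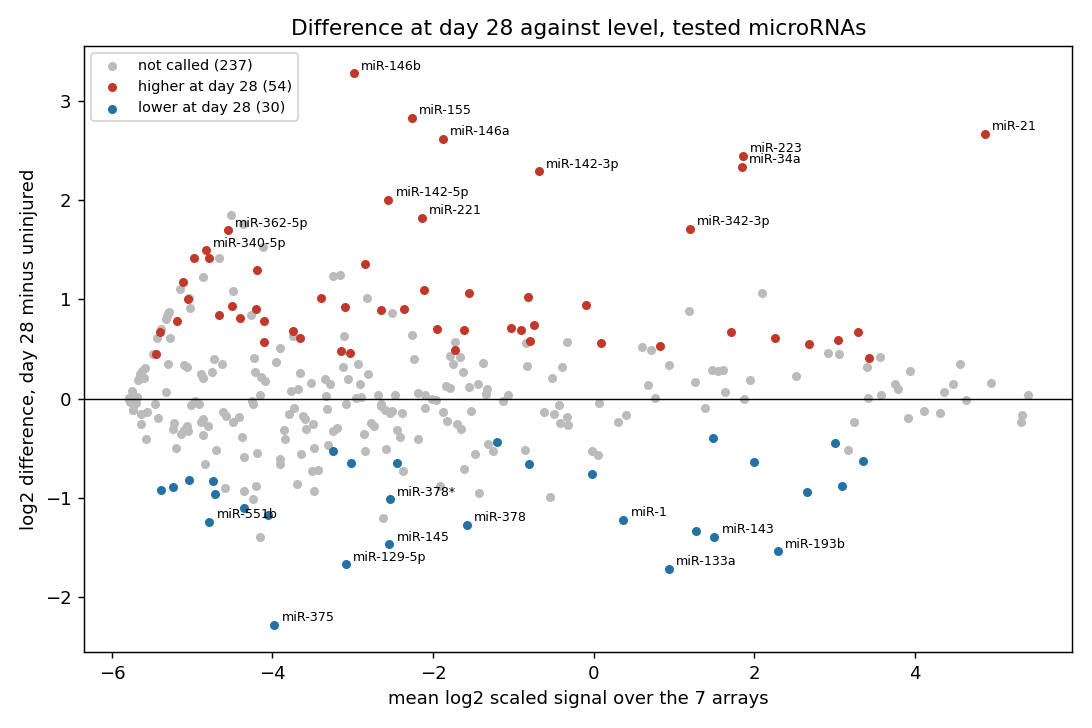
Difference in log2 scaled signal, day 28 minus uninjured (y axis), against the mean level over the 7 arrays (x axis) for the 321 tested microRNAs, 1 point each, coloured by the limma call. The largest differences are upward, from miR-146b at 3.27, and miR-21 lies alone at the bright end.

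The largest rises were in microRNAs of inflammation. miR-146b, a feedback inhibitor of Toll-like receptor and NF-kappaB signalling, read -1.47, -1.37, -1.65 and -1.83 at day 28 and -4.82, -5.05 and -4.70 in uninjured arteries. The groups lay over 2 log2 units apart at their nearest arrays, and miR-146b was above background on 2 of the 3 uninjured arrays. It was at least 9.67-fold higher (log2 difference 3.27 ± 0.17 SE, adjusted p = 1.71e-08 by limma). Its relative miR-146a read -1.04, -0.47, -0.80 and -0.71 against -3.35, -3.57 and -3.19, a 6.12-fold rise (log2 2.61 ± 0.16, adjusted p = 1.01e-07). miR-155, which is processed from the BIC transcript of activated macrophages and lymphocytes, read -1.98, -0.37, -0.97 and -0.88 against -4.01, -3.96 and -3.68. Replicate 1 was its lowest and replicate 2 its highest day 28 array, and all 4 lay above the uninjured arrays. The rise was 7.09-fold (log2 2.83 ± 0.29, adjusted p = 7.39e-06).

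miR-21, which is induced in dividing smooth muscle cells and in fibroblasts, read 6.07, 5.99, 5.93 and 6.09 at day 28 and 3.52, 3.47 and 3.07 in uninjured arteries. The 4 injured arteries lay within 0.2 log2 units of each other. It was 6.35-fold higher (log2 2.67 ± 0.20, adjusted p = 6.43e-07 by limma). The opposite strand of the same hairpin, miR-21*, read -4.37 to -4.81 at day 28 and was not above background on any uninjured array, so its rise was at least 1.61-fold. miR-221, a promoter of smooth muscle growth, read -1.37, -0.83, -1.65 and -1.58 against -3.04, -2.98 and -3.52, a 3.54-fold rise (adjusted p = 4.45e-05). Its cluster partner miR-222 was dim, between -4.75 and -5.48 at day 28 and at the floor in uninjured arteries, and was called only as at least 1.14-fold higher; without replicate 2 its adjusted p was 0.063. miR-132, which is induced by growth factor signalling, was 2.02-fold higher. Of 11 tested members of the injury-induced list 8 rose and none fell, against 16.8% higher over all tested. The median difference was 1.17, against 0.03 over all tested. The exceptions included miR-31 (0.33 ± 0.23) and miR-212 (0.16 ± 0.19). With the normexp background correction 5 of the 11 were called higher and the median was 0.25. The list holds microRNAs known from injured vessels, some first described in such arteries. It was written with earlier results of these data known, so its count is not independent support. Its members miR-21* and miR-222 met the detection filter only through injured groups. Its summed signal was 63.7 to 71.0 at day 28 and 9.25 to 12.7 in uninjured arteries, most of it from miR-21.

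**Figure D2:**
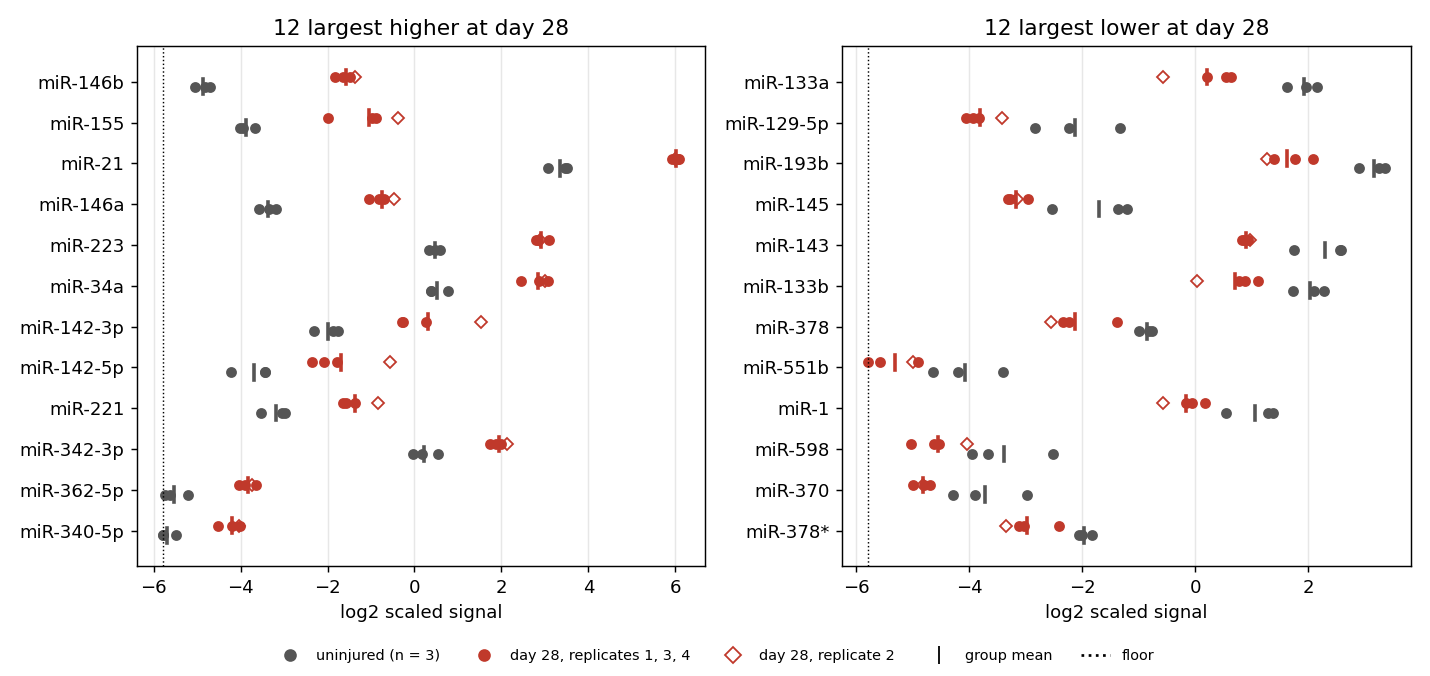
Log2 scaled signal (x axis) of the 12 microRNAs with the largest called rises and the 12 with the largest called falls whose arrays did not overlap, 1 point per array. Red points are day 28 (the open diamond is replicate 2), grey points uninjured, short lines the group means and the dotted line the floor. Replicate 2 is the rightmost red point for miR-142-3p and miR-142-5p and the leftmost for miR-133a, miR-133b and miR-1.

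Leukocyte microRNAs remained high 28 days after injury. miR-223, the myeloid microRNA of neutrophils and macrophages, read 2.83, 2.90, 2.80 and 3.10 against 0.47, 0.59 and 0.33. The spread of the injured arteries was small, and the rise was 5.44-fold (log2 2.44 ± 0.16, adjusted p = 1.39e-07 by limma). Both strands of miR-142, a hairpin used across the blood lineages, rose: miR-142-3p read 0.26, 1.52, -0.27 and -0.30 against -1.88, -1.76 and -2.32. Its rise was 4.89-fold, and replicate 2 lay far above the other 3 arrays; without that array the log2 difference was 1.88 in place of 2.29 (adjusted p = 2.02e-05). miR-142-5p rose 4.00-fold, and by 1.62 on the log2 scale without replicate 2. miR-342-3p, of lymphoid and myeloid cells and encoded in Evl, read 1.74, 2.12, 1.88 and 1.98 against 0.18, -0.04 and 0.53, 3.27-fold higher (adjusted p = 2.03e-06). Its partner miR-342-5p was at least 2.25-fold higher.

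Of 9 tested leukocyte members 7 rose (16.8% over all tested) and none fell, with a median difference of 2.00. Without replicate 2 the count was the same and the median 1.65. The 2 that did not pass were miR-150 of mature lymphocytes (0.86 ± 0.39, adjusted p = 0.124), above background on 3 day 28 arrays with replicate 2 highest at -3.49, and miR-511 (-0.06 ± 0.37), which macrophages express. miR-147 was not above background on any of the 7 arrays. The list's summed signal was 12.8 to 17.1 at day 28 against 3.09 to 3.25 in uninjured arteries. Erythroid microRNAs, the marker of retained blood, did not pass in either direction: 0 of 3 tested members were called (26.2% over all tested). miR-451 read 5.31, 4.58, 5.19 and 5.00 against 5.28, 5.35 and 3.96 (0.16 ± 0.37).

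In the p53-responsive miR-34 family 3 of 5 tested members rose (16.8% over all tested) and none fell, with 1 large rise. miR-34a, which restrains the cell cycle and accumulates in ageing vessels, read 2.44, 3.00, 2.87 and 3.07 at day 28 and 0.38, 0.37 and 0.77 in uninjured arteries. The lowest injured array exceeded the highest uninjured one by more than 1.5 log2 units, and the rise was 5.05-fold (log2 2.34 ± 0.19, adjusted p = 1.10e-06 by limma). miR-34c rose 1.86-fold (adjusted p = 0.00862) and miR-34b-5p 1.63-fold (adjusted p = 0.0463), the latter with overlapping arrays and an adjusted p of 0.0525 without replicate 2. miR-34b-3p, from the other strand, was dim and not called (-0.28 ± 0.41). Under scaling to the array median 1 of the 5 tested members was called, and under normexp and within slide 2 also 1. Over 28 alternative settings miR-34a was called in 28, miR-34c in 22 and miR-34b-5p in 11.

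In a cluster on chromosome X that encodes miR-188, miR-362, miR-500, miR-501 and miR-532, the tested strands of miR-362, miR-500 and miR-532 rose. Its 5 hairpins lie on the minus strand at chrX:7237683-7248497, a span of 10815 bases inside the chloride channel gene Clcn5. miR-362-5p read -4.04, -3.73, -3.66 and -3.89 against -5.74, -5.62 and -5.21, above background on 1 uninjured array, and was at least 2.53-fold higher (adjusted p = 2.18e-06 by limma). miR-362-3p was 2.08-fold higher, miR-532-5p 2.13-fold, miR-500 1.67-fold and miR-532-3p at least 1.60-fold. Of 7 tested members of the list 5 rose (16.8% over all tested) and none fell. The same count was reached without replicate 2, with slide as a block and within slide 2, all of which reuse the same arrays. Of the list's 10 microRNAs 4, 4 and 7 were above background on uninjured replicates 1 to 3, against 7 on each day 28 array. miR-362-5p and miR-532-3p met the detection filter only through injured groups, so the count is not independent support. miR-188-5p (1.08 ± 0.41, adjusted p = 0.0641) read -3.80 on uninjured replicate 3 and near the floor on the other 2. miR-652, an X-linked gene counted with this list, did not pass (0.13 ± 0.15). Several of these are dim: with the normexp background correction the list's median fell to 0.14 from 1.06, 3 were called higher, and miR-532-3p turned to -0.18.

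Other rises came from single hairpins and from related families. Both strands of miR-340, encoded in Rnf130, rose: miR-340-5p read -4.02, -4.03, -4.20 and -4.52 against -5.79, -5.79 and -5.49 and was at least 2.09-fold higher. It lay near the floor: over 27 alternative settings it was called in 26, and its lowest difference was 0.0052. miR-350, within Cep170, read -0.31, -0.30, -0.34 and -0.55 against -1.35, -1.53 and -1.32, 2.04-fold higher with little spread (log2 1.03 ± 0.10, adjusted p = 6.09e-06 by limma).

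Growth-arrest microRNAs of the miR-15/16 family share the seed AGCAGCA, whereas miR-503 of the same list has AGCAGCG. miR-503 read -4.31, -4.38, -3.92 and -4.11 against -5.77, -5.59 and -5.42, at least 2.08-fold higher, but under normexp its difference was -0.02. miR-15a (1.46-fold), miR-16 (1.52-fold) and miR-15b (log2 0.59 ± 0.20) rose less, miR-15b with an adjusted p of 0.106 without replicate 2. The same seed in miR-195, miR-497 and miR-322 came with differences of 0.32, 0.45 and 0.52 that did not pass; with slide as a block these 3 passed (adjusted p = 0.0202, 0.00796 and 0.0165). Of 13 tested members of this list 4 rose (16.8% over all tested) and none fell, and its median of 0.51 was -0.02 under normexp.

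The stromal miR-199 and miR-214 list had 3 of 5 members higher (16.8% over all tested), led by miR-199a-3p at 1.59-fold (3.43, 3.60, 3.61 and 3.68 against 3.06, 2.84 and 2.83). Scaled to the array median, 0 of the 5 passed by limma. miR-10a and miR-10b, from within the Hox clusters, rose 1.62-fold and 1.92-fold. By limma miR-10a did not pass under median scaling (0.42, adjusted p = 0.115), nor miR-10b within slide 2 (1.15, adjusted p = 0.0538). In the growth-promoting miR-17-92 list 4 of 11 rose (16.8% over all tested): miR-19a 1.87-fold, miR-19b 1.60-fold, miR-17* 1.76-fold and miR-93 1.49-fold. Under normexp miR-17* turned to -0.07. In this list 1 member was called with slide as a block, and with median scaling limma called 0. The only endothelial marker tested, miR-126-3p, read 3.48, 3.63, 3.97 and 3.88 against 3.27, 3.34 and 3.37, 1.33-fold higher, and narrowly did not pass (0.42 ± 0.15, adjusted p = 0.0572). With slide as a block it passed at 0.60 (adjusted p = 0.0189).

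From the rodent Sfmbt2 cluster, whose repeated hairpins differ little from each other so that probes may share signal, 2 of 28 tested members rose, a share below the 16.8% over all tested. Their number was 5 without replicate 2 and 3 within slide 2. The median of the list was 0.42, but 0.09 without replicate 2 and -0.20 under normexp. miR-669a read -1.82, -2.52, -2.61 and -2.11 against -3.56, -3.76 and -3.55 (2.56-fold). miR-467c was not above background on any uninjured array and was at least 1.92-fold higher, but -0.01 under normexp. With slide as a block neither passed (adjusted p = 0.0695 for miR-669a and 0.0768 for miR-467c). miR-466h read -2.42, -4.69, -3.46 and -3.87 against -5.35, -5.56 and -5.18, with replicate 1 highest and replicate 2 lowest, and did not pass (adjusted p = 0.0758; 0.0487 without replicate 2).

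Contractile smooth muscle microRNAs were lower. miR-143 read 0.87, 0.98, 0.84 and 0.93 at day 28 and 2.57, 2.58 and 1.75 in uninjured arteries. The injured arteries agreed closely, while uninjured replicate 3 lay below the other 2 and still above every day 28 array. The fall was 2.63-fold (log2 -1.39 ± 0.21, adjusted p = 0.000317 by limma), and within slide 2 its adjusted p was 0.0134. miR-145, made from the same primary transcript, read -3.27, -3.15, -3.31 and -2.95 against -1.21, -1.37 and -2.53, a 2.77-fold fall (log2 -1.47 ± 0.26, adjusted p = 0.00102). Within slide 2 its adjusted p was 0.0586. Both tested members of the list fell (9.35% over all tested), and neither was called without scaling. The list's summed signal was 1.89 to 2.08 against 3.53 to 6.37. miR-145* was not above background on any of the 7 arrays.

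Some microRNAs of striated muscle, which lies beside the carotid artery, were also lower. miR-133a read 0.22, -0.56, 0.63 and 0.54 against 1.97, 1.63 and 2.16, 3.28-fold lower (log2 -1.72 ± 0.42, adjusted p = 0.00862 by limma). Replicate 2 was its lowest array, and without it the difference was -1.46 (adjusted p = 0.0239). miR-1 was 2.33-fold lower (-0.06, -0.57, 0.17 and -0.16 against 1.28, 0.54 and 1.37). miR-133b was 2.53-fold lower over all arrays, with adjusted p = 0.0959 without replicate 2 and 0.0473 within slide 2. Of 5 tested members 3 fell (9.35% over all tested) and none rose. The counts of falls were 2 without replicate 2, 0 with slide as a block and 2 within slide 2. miR-206, of slow skeletal muscle, did not pass (0.04 ± 0.80) and spread from -3.55 to -1.25 over the day 28 arrays. miR-208b and miR-499 were not above background on any of the 7 arrays. The summed list was 2.48 to 5.30 at day 28 against 8.04 to 12.4. The part of muscle or fat carried along with the vessel in these differences was not tested.

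Of the fat-enriched microRNAs 3 of 6 tested members fell (9.35% over all tested) and none rose. miR-193b, which promotes brown fat differentiation, read 1.39, 1.27, 2.09 and 1.77 against 3.35, 3.26 and 2.90, 2.91-fold lower (log2 -1.54 ± 0.24, adjusted p = 0.000416 by limma; 0.00463 within slide 2). miR-378, encoded in the gene of a mitochondrial coactivator, read -2.23, -2.55, -1.38 and -2.34 against -0.76, -0.81 and -0.99, 2.41-fold lower, and its other strand miR-378* was 2.02-fold lower. Without replicate 2 the 2 strands had adjusted p = 0.0488 and 0.0549. The slide block gave 0.119 and 0.134, which left 1 of the 6 called. Without scaling none of the 3 was called by limma. miR-193 (-0.52 ± 0.21) and miR-365 (-0.45 ± 0.20) did not pass. The summed list was 3.41 to 5.85 at day 28 against 9.24 to 12.5.

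miR-375, of endocrine and epithelial cells, was the lowest of all by size, and its arrays overlapped. It read -5.03, -3.20, -5.79 and -5.79 at day 28 against -2.06, -2.75 and -3.22. Replicate 2, the array rich in epithelial microRNAs, supplied the highest injured value. Over all arrays it was at least 4.84-fold lower (log2 -2.28 ± 0.53, adjusted p = 0.00700 by limma), and without replicate 2 the difference was -2.86 ± 0.34 (adjusted p = 6.45e-05). Of the other 6 tested epithelial members none was called (26.2% over all tested). miR-200b differed by 1.02 ± 0.82 with replicate 2 and by -0.07 without it, and miR-200c by 0.84 ± 0.73 and -0.04.

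Few nerve-enriched microRNAs were called. Of 10 tested members 1 rose and 1 fell, near or below the shares of 16.8% and 9.35% over all tested, and with slide as a block neither passed (adjusted p = 0.0552 for miR-219 and 0.0782 for miR-129-5p). miR-129-5p read -4.06, -3.42, -3.82 and -3.93 against -2.83, -2.24 and -1.33, 3.18-fold lower (adjusted p = 0.0273 by limma; 0.186 within slide 2). miR-219, of myelinating cells, was 1.60-fold higher (-3.26, -3.05, -3.66 and -3.86 against -4.17, -4.11 and -4.13), and within slide 2 its adjusted p was 0.0586. miR-338-3p, also of myelinating cells, read 2.48, 2.93, 2.61 and 2.18 against 0.88, 1.42 and 2.15 and did not pass (1.06 ± 0.41, adjusted p = 0.0736). Their summed signal ranged from 5.76 to 10.7 at day 28 and overlapped the uninjured range of 4.36 to 9.82.

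Other called falls were in miR-551b (at least 2.35-fold), miR-598 (2.26-fold), miR-370 (2.15-fold), the cholesterol-efflux regulator miR-33 (at least 1.94-fold) and both strands of miR-140, which is encoded in Wwp2 and is known from cartilage (1.85-fold for miR-140 and 1.93-fold for miR-140*; adjusted p = 0.0558 and 0.103 within slide 2). miR-370 read -4.69, -4.82, -4.80 and -4.99 against -4.28, -3.89 and -2.97 and had an adjusted p of 0.125 within slide 2 by limma. Over 27 alternative settings miR-598 was called in 15. miR-33 read -4.87, -4.59, -5.25 and -5.79 against -4.18, -4.12 and -4.19, and within slide 2 its adjusted p was 0.00418.

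In other families members moved in both directions or few were called. In the antifibrotic miR-29 family, miR-29c read 2.74, 2.85, 2.88 and 2.75 against 3.46, 3.31 and 3.01, 1.37-fold lower (-0.45 ± 0.13, adjusted p = 0.0194 by limma), and without scaling it was 0.19. With slide as a block its adjusted p was 0.0752. miR-29c* was 1.56-fold lower (adjusted p = 0.0714 within slide 2). miR-29b did not pass (0.46 ± 0.17), while the opposite strand of one of its hairpins, miR-29b*, was at least 1.76-fold higher, or -0.15 under normexp. Of 5 tested members of the family 1 rose and 2 fell (16.8% and 9.35% over all tested), with a median of 0.04. In the miR-30 family 2 of 9 fell (9.35% over all tested), miR-30a by 0.63 and miR-30c-2* by 0.53 on the log2 scale. Without scaling their differences were 0.0040 and 0.11, and with slide as a block neither passed by limma (adjusted p = 0.115 and 0.241). Of 13 let-7 members only miR-98 was called, at 1.40-fold higher (16.8% higher over all tested), with adjusted p = 0.108 by limma without replicate 2. In the miR-23/27/24 clusters only miR-24-1* of 7 was called, and it was lower (9.35% lower over all tested). Its difference of -0.44 was 0.20 without scaling and had an adjusted p of 0.275 by limma with slide as a block. miR-100 was 1.55-fold lower (-0.64), but its difference was -0.30 under the slide block (adjusted p = 0.194) and 0.0017 without scaling. None of the 4 miR-181, 2 miR-26 or 2 liver members tested was called by limma (26.2% over all tested). miR-181a read -0.83 on replicate 2 against -2.28 to -2.68 on the other day 28 arrays. Of 47 tested members of the Dlk1-Dio3 cluster, the large imprinted cluster on chromosome 12, 1 was higher (miR-494, 0.92 ± 0.31) and 2 lower (miR-370 and miR-300). These shares were below the 16.8% and 9.35% over all tested, and the median of -0.27 was 0.24 without scaling. With slide as a block none of these 3 microRNAs passed by limma (adjusted p = 0.152, 0.0704 and 0.0752), and without replicate 2 miR-300 did not (adjusted p = 0.0630).

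Where both strands named for a hairpin were tested (58 pairs) they could be read against each other. Over all tested microRNAs 26.2% were called, 16.8% higher and 9.35% lower. Both strands were called in 10 pairs, in the same direction each time. In 7 they were higher (miR-21, miR-142, miR-199a, miR-340, miR-342, miR-362 and miR-532) and in 3 lower (miR-29c, miR-140 and miR-378). In 11 pairs 1 strand was called, and in 37 none. The strands of a pair were measured on the same arrays by different probes. They can come from 1 transcript, but some pairs have more than 1 hairpin: miR-199a is encoded on chromosomes 1 and 9.

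**Figure D3:**
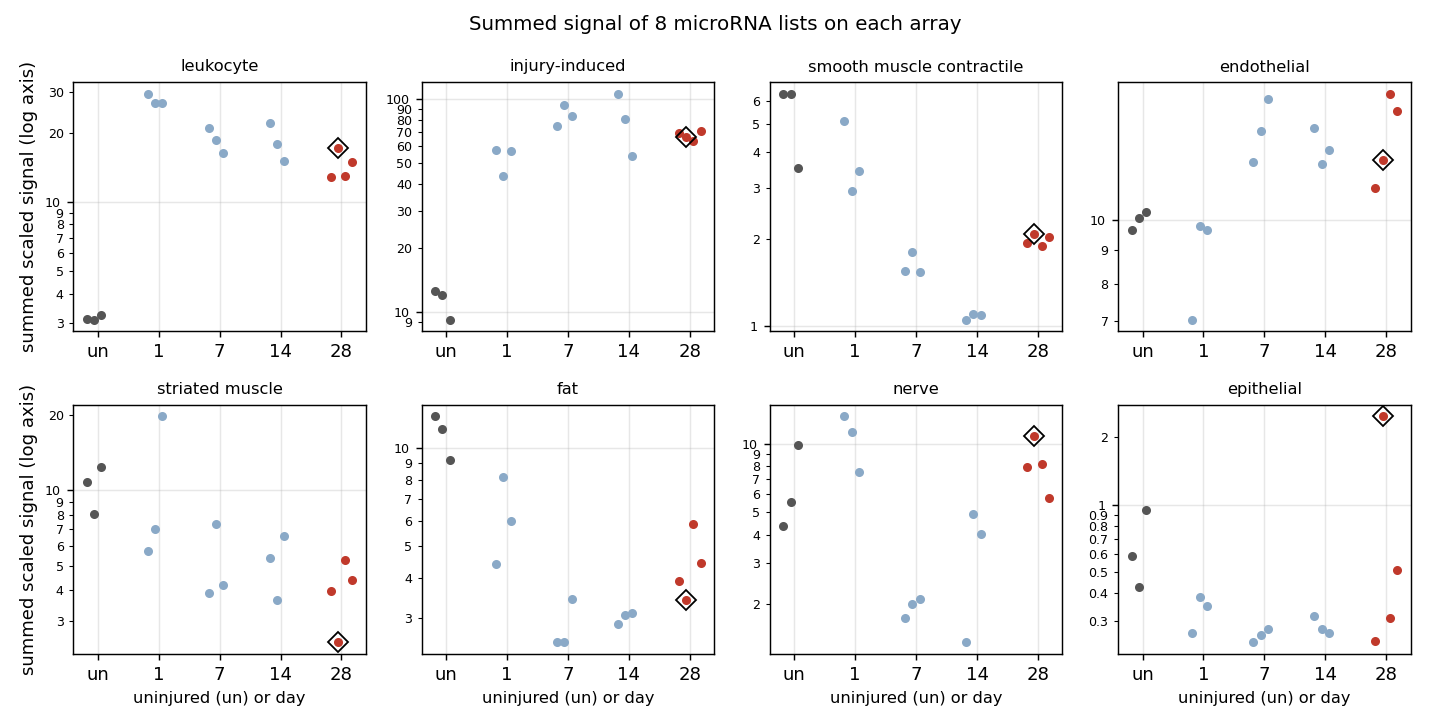
Summed scaled signal of 8 lists (y axis, log scale) on every array, by group (x axis: uninjured, then days after injury). Day 28 arrays are red, with replicate 2 outlined, uninjured arrays are grey and other days blue. Replicate 2 stands alone in the epithelial list at 2.49, while the leukocyte list lies between 12.8 and 17.1 on all day 28 arrays and at most 3.25 in uninjured arteries.

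Leaving out replicate 2 ended 15 of the 84 calls, slide as a block 35 and keeping to slide 2 41. Among the 84, the largest movement was 0.58 log2 units without replicate 2 and 0.83 within slide 2, both for miR-375. The 32 that were higher in all 3 fits include miR-146a, miR-146b, miR-155, miR-21, miR-223, miR-34a, both strands of miR-142, miR-221, both strands of miR-342, miR-362 and miR-532, miR-350 and miR-503. The 6 that were lower in all 3 were miR-375, miR-193b, miR-143, miR-551b, miR-33 and miR-330*.

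**Figure D4:**
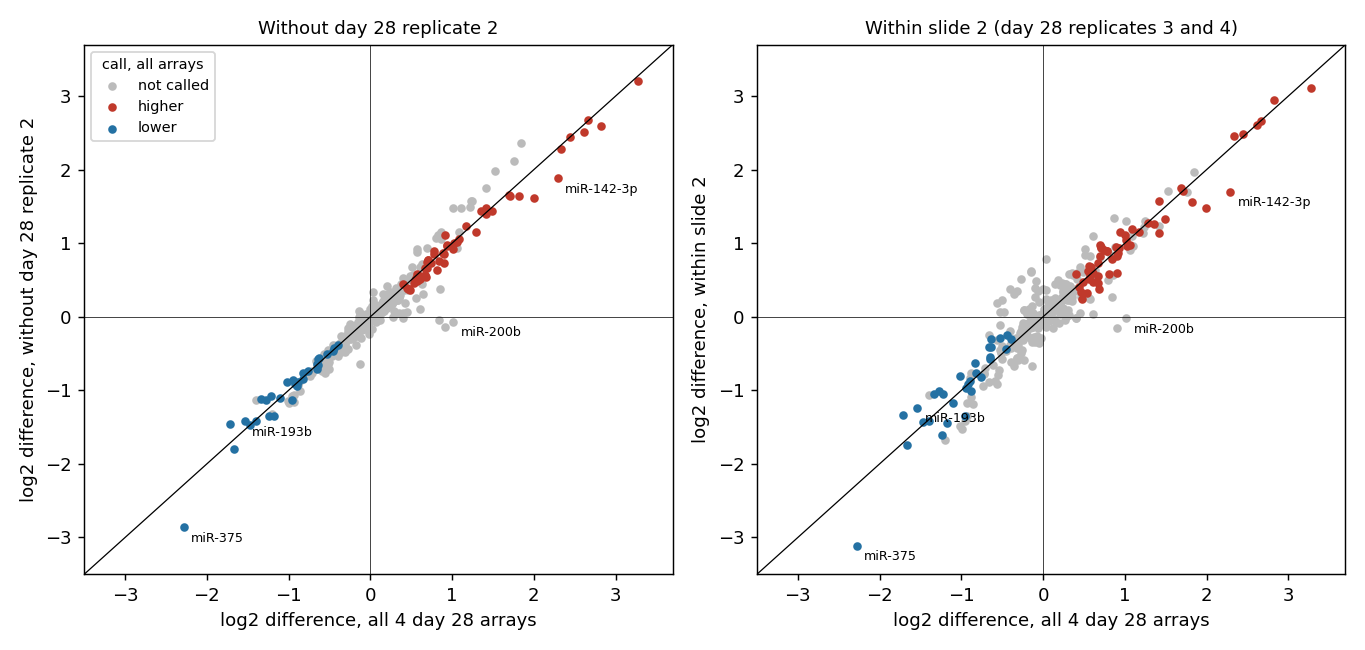
Log2 difference from uninjured with all 4 day 28 arrays (x axis) against the difference without replicate 2 (left, y axis) or within slide 2 (right, y axis), 1 point per tested microRNA, coloured by the call over all arrays. The line marks equal values; miR-142-3p falls below it in both panels, at 1.88 and 1.70 in place of 2.29, and miR-375 lies at -2.86 and -3.11 in place of -2.28.

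Against day 14 the day 28 arteries differed in fewer microRNAs. By limma 49 of 321 were called (15.3%), 31 higher (9.66%) and 18 lower (5.61%). Without day 28 replicate 2 the count was 33, 22 higher and 11 lower. With slide as a block it was 28. Within slide 2, which holds 2 day 28 arrays, limma gave 0 at an adjusted p under 0.05 and 81 at an unadjusted p under 0.05. All day 14 arrays lay on slide 2, so the slide block also rests on those 2 day 28 arrays. Both smooth muscle microRNAs were higher than at day 14: miR-143 by 0.86 (adjusted p = 0.0159; 0.0700 under the slide block) and miR-145 by 1.08 (adjusted p = 0.0130; 0.0466 under the slide block). Their day 14 means were 0.04 and -4.25, against 0.90 and -3.17 at day 28 and 2.30 and -1.70 in uninjured arteries. The largest rise from day 14 was in miR-338-3p (1.67; adjusted p = 0.0159, under the slide block 0.0959), followed by miR-204 (1.22; 0.0135 and 0.109), and miR-29b was higher by 0.97. The largest falls were in Dlk1-Dio3 members: miR-431 by 1.36, miR-379 by 1.16, miR-299 by 1.05 and miR-337-5p by 1.02 on the log2 scale (the last with an adjusted p of 0.0959 under the slide block), and 8 of the 47 tested members were lower and none higher. miR-503 fell by 1.01 and miR-223 by 0.56, the latter with an adjusted p of 0.149 under the slide block, while miR-146b, miR-155, miR-21, miR-146a and miR-34a were not called, with differences of 0.40, -0.37, -0.20, 0.10 and -0.45.

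Against day 7 the difference was wider: 108 of 321 were called (33.6%), 55 higher (17.1%) and 53 lower (16.5%). With slide as a block the count was 81, and within slide 1 it was 69. All day 7 arrays lay on slide 1, so both rest on day 28 replicates 1 and 2 alone. Without replicate 2 the count over both slides was 111, 52 higher and 59 lower. Of the 47 Dlk1-Dio3 members 28 were lower and none higher (median -0.95 against 0.12 over all tested), led by miR-154* (-2.03), miR-377 (-1.97), miR-376b (-1.84) and miR-379 (-1.70). miR-379 read -1.58, -1.16, -1.15 and -1.37 at day 28, with a mean of 0.38 at day 7, -0.16 at day 14 and -1.36 in uninjured arteries. Most nerve-enriched microRNAs were higher than at day 7 (6 of 10): miR-124 by 2.49, miR-338-3p by 2.45, miR-137 by 2.38 and miR-129-5p by 1.89. So were 8 of 9 miR-30, 6 of 7 miR-23/27/24 and 3 of 5 miR-29 members, and miR-181c by 1.49 (adjusted p = 1.06e-05). miR-503 fell by 1.61 (adjusted p = 1.06e-05) and miR-223 by 0.73 (adjusted p = 0.00374), and both remained above uninjured arteries. miR-362-5p and miR-340-5p were lower than at day 7 by 0.90 and 0.81 on the log2 scale. miR-146a and miR-155 were not called, with differences of 0.17 and -0.14, each with a standard error (0.16 and 0.29) close to or above its size.

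**Figure D5:**
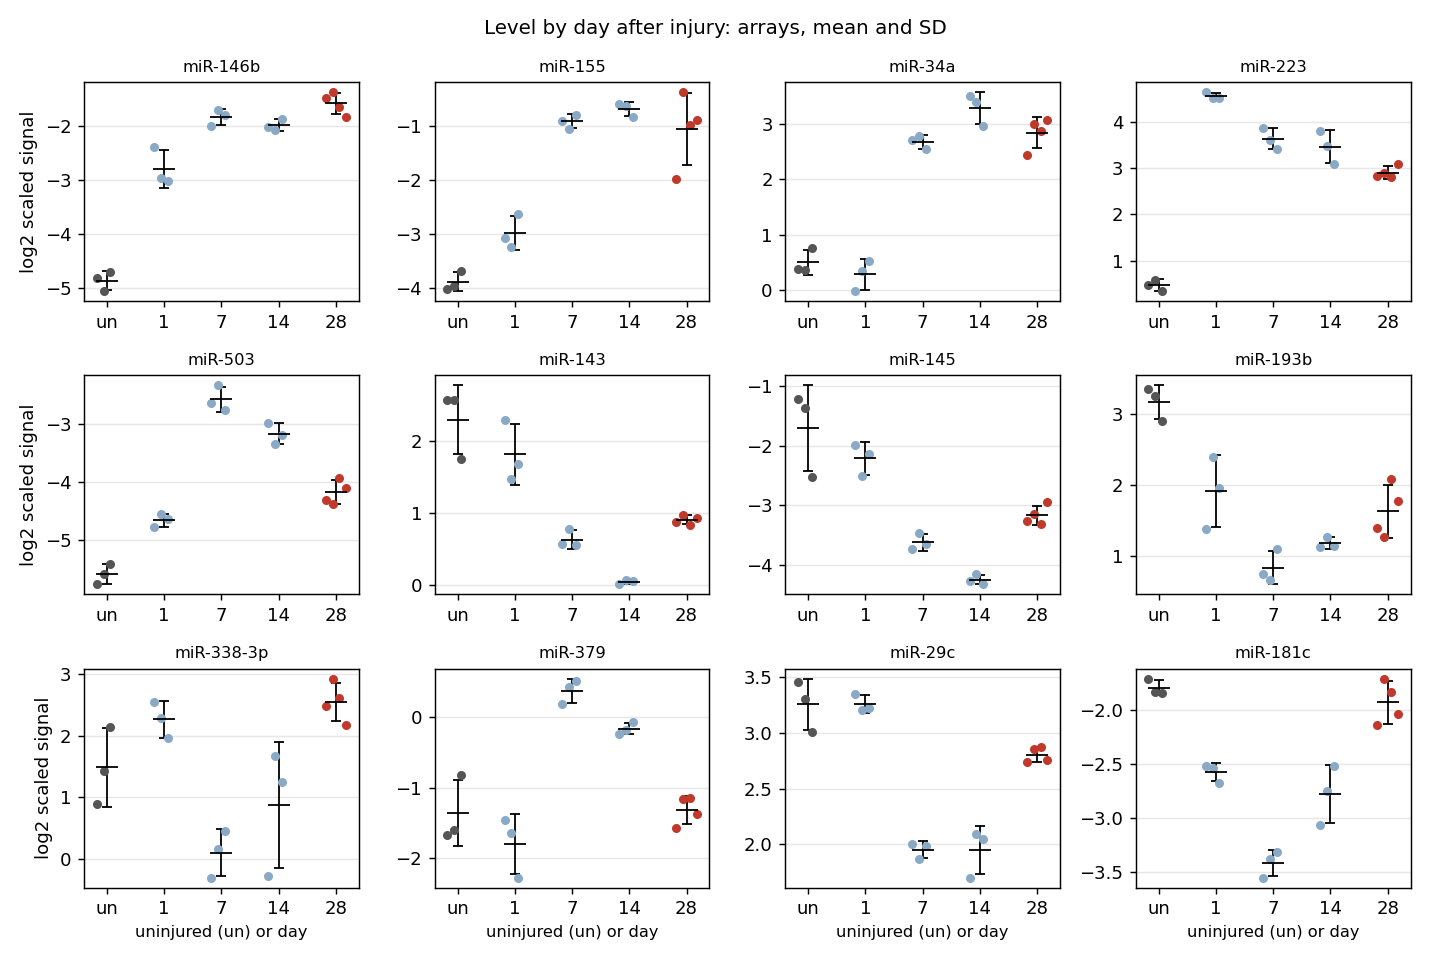
Log2 scaled signal (y axis) of 12 microRNAs in uninjured arteries and at days 1, 7, 14 and 28 after injury (x axis), 1 point per array, with the group mean and SD. miR-503 has fallen from its day 7 mean of -2.57 to -4.18, and miR-143 and miR-145 lie above day 14 and below uninjured arteries.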

How the data were processed

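The arrays are Agilent 1-colour (Cy3) mouse microRNA arrays. The authors deposited scanner files with the intensity of each spot, extracted with Agilent Feature Extraction 9.5.1.1 per the file headers, and a value table of linear intensity. Processed signal was averaged over the unmarked spots of a probe and divided by the array's 75th percentile over the 395 mouse probes above background on all 16 arrays. Values under 0.0181 were set to it, log2 was taken, and the brightest probe stood for a microRNA (611, of which 321 were tested). Before scaling, the 75th percentiles ran from 401 to 1432, and the number of arrays limits the precision.

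One model over the 5 groups was fitted in limma 3.58.1 (R 4.3.3), with Benjamini-Hochberg adjustment over the 321 and a call at an adjusted p under 0.05; p-values measure the spread between these arrays, which may be technical. An exact permutation test of 4 against 3 cannot give a two-sided p below 0.0571. On simulated data for this comparison (321 microRNAs, 60 changed, 20 runs) 69.3% of changes of 1 log2 unit and 90.8% of 2 were recovered, and 3.62% of calls were false. The simulated noise was independent between microRNAs and arrays, with no shared effect of slide or of a single array. These rates therefore do not cover errors from slide or from an array such as day 28 replicate 2. A fold is "at least" where an array of the lower group was not above background; it then uses that array's lowest detected signal where that is higher. Named are, per direction, the 12 largest called differences with groups apart (4 between days), up to 4 smallest-p members of each of 24 lists, the epithelial markers and other strands. Further list members (among them miR-31, miR-132, miR-150, miR-206, miR-222 and miR-500) and miR-33, miR-128, miR-140, miR-330* and miR-350 were chosen after their values were seen. The members and lists were chosen with earlier results of these data known. Same-numbered replicates did not deviate together in every pair (correlations from -0.448 to 0.558; day 28 with day 7 0.558, 0.344 and -0.142), so the numbers were not used to pair arrays. Array names were matched to RefSeq mature names by hand. Alternatives covered scaling, background, filter, floor, probe summary, slide and replicate blocks, moderation and each array left out.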

Additional observations from a re-analysis of the deposited data

Results flagged for a closer look

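Within the 4 day 28 arrays, 3 named microRNAs had 1 array far from the others by Dixon's test at the 95% level, which flags about 1 in 20 such groups by chance: miR-200b on replicate 2 (-1.35), miR-532-5p on replicate 1 (-1.97) and miR-124 on replicate 4 (-3.03). Over all tested microRNAs such departures fell on replicate 1 in 4 cases, replicate 2 in 10, replicate 3 in 1 and replicate 4 in 12.

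The effect of injury differed between day 28 and an earlier day, by the test of the difference itself (limma, adjusted p under 0.05), for the microRNAs below. Only the 24 largest differences from uninjured, the 4 largest per direction between days, miR-503 and miR-181c were looked at, a range narrowed after all called differences had been seen. Relative to day 14 the log2 difference was higher at day 28 for miR-338-3p (1.67), miR-204 (1.22), miR-145 (1.08), miR-29b (0.97), miR-143 (0.86) and miR-181c (0.85). It was lower for miR-431 (-1.36), miR-379 (-1.16), miR-299 (-1.05), miR-337-5p (-1.02), miR-503 (-1.01) and miR-223 (-0.56). Relative to day 7 it was higher for miR-124 (2.49), miR-338-3p (2.45), miR-137 (2.38), miR-129-5p (1.89), miR-181c (1.49), miR-598 (1.23), miR-193b (0.80) and miR-342-3p (0.45). It was lower for miR-154* (-2.03), miR-377 (-1.97), miR-376b (-1.84), miR-379 (-1.70), miR-503 (-1.61), miR-362-5p (-0.90), miR-340-5p (-0.81) and miR-223 (-0.73). With slide as a block the adjusted p no longer passed against day 14 for miR-143 (0.0700), miR-204 (0.109), miR-223 (0.149), miR-337-5p (0.0959) and miR-338-3p (0.0959), nor against day 7 for miR-193b (0.178) and miR-342-3p (0.0975).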

How the results depend on the processing

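For day 28 against uninjured (84 called) the count was 55 with slide as a fixed block, 55 within slide 2, 44 with only the 2 groups fitted, 52 with normexp background and 34 with a log2 difference of at least 1 required as well, and 63 to 86 with each array left out; the other settings stayed within 1.5 times. A block for the replicate number gave 66, or 21 together with a slide block. The split of higher to lower calls moved from 54 and 30 to 30 and 41 with median scaling, 38 and 33 with quantile normalization, 30 and 57 with total gene signal, 33 and 46 with the authors' value table, 23 and 29 with normexp and 60 and 1 without scaling; the median of all tested was then -0.20 for median scaling, -0.22 for normexp and 0.63 without scaling. Without scaling the difference turned to 0.0017 for miR-100, 0.20 for miR-24-1*, 0.19 for miR-29c, 0.0040 for miR-30a and 0.11 for miR-30c-2*. Under normexp, which adds 50 to every signal, it turned to -0.071 for miR-17*, -0.15 for miR-29b*, -0.014 for miR-467c, -0.019 for miR-503 and -0.18 for miR-532-3p.

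For day 28 against day 14 (49) the count was 28 with a slide block, 0 within slide 2, 34 with the replicate block, 0 with replicate and slide blocks, 25 with the percentile over all mouse probes, 31 with median scaling, 0 without scaling, 28 with normexp, 28 with total gene signal, 26 with the authors' value table and 8 with the log2 limit, and 21 to 46 with each array left out; without day 14 replicate 1 it was 21, and without day 14 replicate 2 it was 30. For day 28 against day 7 (108) it was 69 within slide 1, 90 with the replicate block, 49 with replicate and slide blocks, 24 without scaling, 70 with normexp and 49 with the log2 limit, and 85 to 118 with each array left out. The cause of these changes was not tested.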
